A study of Mus musculus with 70 samples.

Results

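RNA of 7 genes of B lineage cells was followed in CD45+ leukocytes sorted from B16F10 melanomas of C57BL/6 mice. The genes were Pax5, Ms4a1, Cd79a, Cd79b, Ighm, Igkc and Jchain, which are 7 of the 55487 named rows of each count table, and they had been chosen from the values they showed in comparisons of sham-treated tumors with histotripsy-treated and histotripsy-abscopal ones. B16F10 is a transplantable mouse melanoma cell line, and the mice carried a tumor on each flank. In histotripsy, focused ultrasound pulses break tissue up mechanically without heating it. One tumor per mouse received a partial ablation or a sham procedure. Control tumors came from sham mice, histotripsy-treated tumors were the ablated ones, and histotripsy-abscopal tumors were the untreated tumors on the flank opposite an ablated one. CD45+ cells were taken 3 days after the procedure from 4 control, 6 treated and 7 abscopal tumors, and 7 days after it from 10 control, 3 treated and 4 abscopal tumors. The mice were of both sexes, 6 to 8 weeks old at the start, and were not randomized, and the sex, the mouse and any sequencing batch of a library are not known. Treated and abscopal tumors can come from the same mouse without the labels saying which, so p-values measure the spread between libraries. Day and any sequencing batch cannot be told apart.

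B cells recognise antigen through a membrane immunoglobulin that is made of heavy and light chains and signals through the paired Cd79a and Cd79b chains. Once activated, some become plasmablasts and plasma cells, which lose much of the B cell program and secrete antibody. Pax5 keeps B cell identity and represses Jchain, so the transcripts of the receptor stage and of the secreting stage are normally found in different cells. Ms4a1 encodes CD20, a membrane protein of B cells that plasma cells lack. Ighm and Igkc encode the constant parts of the mu heavy chain and the kappa light chain and are expressed at both stages, most strongly in secreting cells. Jchain encodes the joining chain that links IgM or IgA units into multimers before secretion. In B16F10 tumors B cells are usually a small part of the leukocytes. In RNA of whole sorted populations, fewer B cells and less RNA per B cell cannot be told apart.

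The CD45+ libraries held 887798 to 2824959 counts, and values are given as CPM, the count of a gene per 1000000 counts of its library. The sort separated these genes. Ptprc, which encodes CD45, stood between 651 and 1252 CPM in the 34 CD45+ libraries and had 7 counts in total in the 36 CD45- libraries. Over the CD45+ libraries the summed counts were 18888 for Igkc, 14423 for Ighm, 3569 for Jchain, 1436 for Ms4a1, 1045 for Cd79b, 1044 for Pax5 and 62 for Cd79a. In the deeper CD45- libraries Ighm had 0 counts, Cd79b 1, Cd79a 2, Ms4a1 2, Jchain 3, Igkc 6 and Pax5 16. Of the 6 Igkc counts, 5 were in abscopal replicate 1 of day 7, the tumor whose CD45+ cells also held the most Igkc of any library, if the same number marks the same tumor, which the labels do not say. A ribosomal RNA gene, CT010467.1, took 6.66 to 16.0% of the CD45+ counts.

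The genes lie apart in the genome. In GRCm38 with the GENCODE M21 annotation, Pax5 spans chr4:44524757-44710487 on the minus strand, Ms4a1 chr19:11249675-11266241 (minus), Cd79a chr7:24897381-24902197 (plus), Cd79b chr11:106311341-106314762 (minus), Ighm chr12:113418558-113422730 (minus), Igkc chr6:70726435-70726966 (plus) and Jchain chr5:88519809-88527891 (minus). The strand setting of the counting is not stated in the sources used here. Ms4a1 overlaps the antisense gene 4930526L06Rik and Pax5 overlaps 4 short or noncoding genes, and Igkc overlaps the noncoding RNA gene Gm30211 on its own strand, so a part of the reads counted for these 3 genes is uncertain.

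Pax5 and Ms4a1 spread widely within groups, with the day 7 abscopal tumors at the lower end. On day 3, Pax5 stood at 14.4, 9.37, 21.6 and 18.0 CPM in the 4 control libraries, at 2.50 to 27.1 CPM (median 9.54) in the 6 treated libraries and at 3.98 to 36.2 CPM (median 14.2) in the 7 abscopal libraries. On day 7 it stood at 7.58 to 58.9 CPM (median 29.6) in the 10 control libraries, at 18.2, 28.8 and 10.1 CPM in the treated libraries and at 6.59, 11.7, 8.44 and 6.69 CPM in the abscopal libraries. The day 3 groups overlapped throughout, whereas on day 7 the 4 abscopal libraries lay at the lower end of the control range, 2 of them below its lowest value.

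Ms4a1 also spread widely within the groups, with another order of medians than Pax5 on day 3 and the same order on day 7. Its day 3 values were 10.6, 10.5, 19.6 and 39.2 CPM in control tumors, 7.51 to 38.0 CPM (median 15.2) in treated tumors and 8.95 to 37.5 CPM (median 21.6) in abscopal tumors. On day 7 they were 14.1 to 80.1 CPM (median 32.7) in control tumors, 27.4, 45.3 and 14.3 CPM in treated tumors, and 14.1, 16.7, 14.1 and 14.5 CPM in abscopal tumors. The 4 abscopal values of day 7 were close together and at the lower end of the control values. The highest day 3 treated value, 38.0 CPM, belonged to replicate 3, which also had the highest summed neutrophil markers of that group (26983 CPM, against 1342 CPM in the lowest of the 6) and the highest summed markers of naive or central memory lymphocytes (2222 CPM), and their part in that value was not tested.

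Cd79b, one of the receptor's signalling chains, had at least 8 counts in every CD45+ library. On day 3 its values were 18.3, 14.3, 19.6 and 17.6 CPM in control tumors, 5.63 to 17.5 CPM (median 12.5) in treated tumors and 6.96 to 33.0 CPM (median 10.3) in abscopal tumors. On day 7 they were 12.3 to 42.4 CPM (median 25.5) in control tumors, 18.6, 30.9 and 13.0 CPM in treated tumors and 10.8, 17.5, 5.63 and 21.2 CPM in abscopal tumors. Every pair of groups overlapped on both days. Its partner Cd79a had 0 to 7 counts per library and 0 counts in 9 of the 34 CD45+ libraries, too few to pass the filter on low counts, so no fold change is given for it. At the median depth of 1711317 counts, 0 counts of Cd79a allow up to 3 counts, and intervals and floors of this kind cover counting error only.

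Ighm, the constant part of the mu chain, was the most even of the immunoglobulin genes within the day 3 control group. It stood at 209.8, 196, 208 and 233 CPM in the day 3 control tumors, at 83.3 to 222 CPM (median 142) in treated tumors and at 142 to 444 CPM (median 193) in abscopal tumors. On day 7 it stood at 146 to 620 CPM in control tumors (median 278), at 242, 334 and 188 CPM in treated tumors, and at 422, 192, 150.5 and 147 CPM in abscopal tumors. The 4 day 3 control libraries agreed closely, and 1 day 7 abscopal library, replicate 1, stood well above the other 3.

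Igkc and Jchain had the widest ranges. Igkc stood at 313, 269.6, 154 and 130.3 CPM in day 3 control tumors, at 48.2 to 251 CPM (median 203) in treated and at 149 to 803 CPM (median 258) in abscopal tumors. On day 7 it stood at 128 to 569 CPM (median 285) in control tumors, at 246, 423 and 162 CPM in treated tumors, and at 1345, 345, 162 and 148 CPM in abscopal tumors. The groups overlapped, and abscopal replicate 1 of day 7 held the highest value of the 34 libraries.

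Jchain was uneven within the control group as well. Its day 3 values were 66.4, 61.7, 10.5 and 8.17 CPM in control tumors, 6.35 to 50.7 CPM (median 26.2) in treated tumors and 10.9 to 178 CPM (median 50.7) in abscopal tumors. On day 7 they were 8.40 to 69.2 CPM (median 48.8) in control tumors, 51.8, 47.3 and 37.8 CPM in treated tumors, and 395, 72.6, 38.0 and 24.5 CPM in abscopal tumors. Replicates 1 and 2 of the day 3 control tumors were several-fold above replicates 3 and 4, and on day 7 abscopal replicates 1 and 2 exceeded the highest control library while replicates 3 and 4 lay inside the control range.

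**Figure D1:**
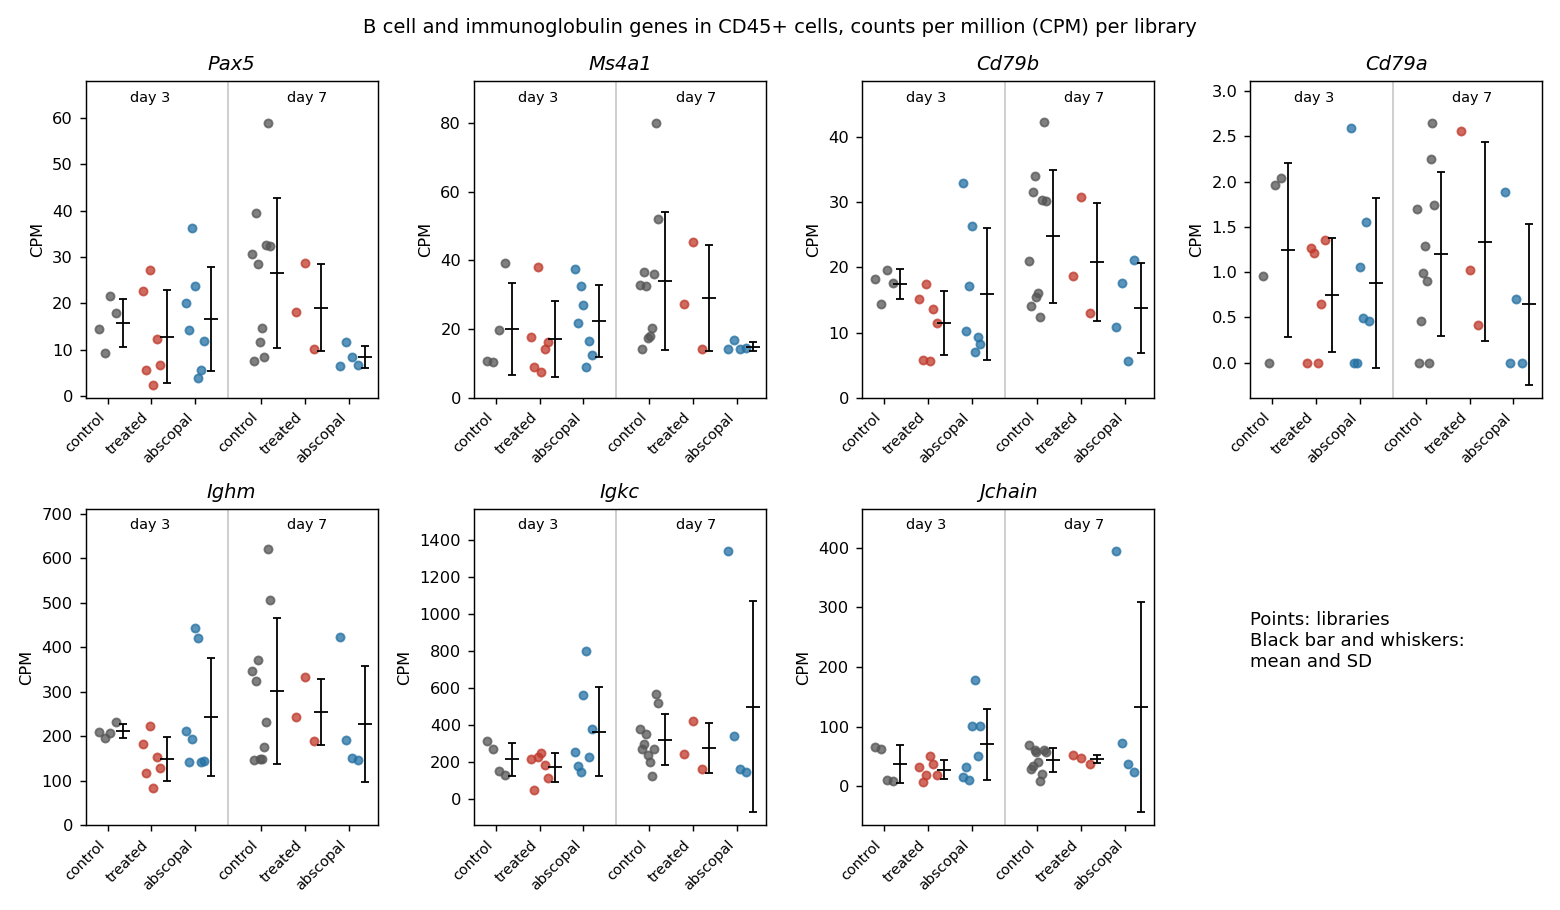
CPM (linear axis) of the 7 genes in each CD45+ library, by group and day; points are libraries and the black bar with whiskers is the mean and SD. On day 7 the 4 abscopal points of Pax5 (6.59 to 11.7 CPM) and Ms4a1 (14.1 to 16.7 CPM) sit at the lower end of the control points, while 1 abscopal library stands far above the rest for Igkc (1345 CPM) and Jchain (395 CPM).

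Which of these differences between tumor groups exceeded the spread between libraries was examined with edgeR's quasi-likelihood test over all genes, with 5% false discovery rate by the Benjamini-Hochberg method. As the genes were chosen for their values in these comparisons, their log2 fold changes are given as a description with no test. On day 3, 6 of the 7 genes passed the filter. In treated against control tumors 0 of these 6 were called, against a background of 7.8% of the 10264 genes tested. At an unadjusted p under 0.05 there were 0 of the 6 and 2457 of all genes. The log2 fold changes were -0.36 (SE 0.42) for Cd79b, -0.27 (SE 0.32) for Ighm, -0.17 (SE 0.67) for Jchain, -0.08 (SE 0.44) for Igkc, -0.06 (SE 0.56) for Pax5 and -0.01 (SE 0.47) for Ms4a1. Each was smaller than its standard error. Library totals in place of TMM factors moved the median gene of this comparison from -0.01 to -0.22 on the log2 scale, and the split of called genes from 638 higher and 163 lower to 413 higher and 650 lower, so the values are relative to that median.

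In abscopal against control tumors of day 3, 0 of the 6 genes and 0.0% of the genes tested were called by edgeR. At an unadjusted p under 0.05 there were 0 of the 6 genes and 796 of all genes, and DESeq2 called 12 genes and limma-voom 0, with none of the 6 among them. Jchain and Igkc stood higher in abscopal tumors, with log2 fold changes of 1.06 (SE 0.64) and 0.83 (SE 0.43), while of 5 genes of the plasma cell and secretion list 1 stood higher and 4 lower (median -0.08). Those of the other genes were 0.28 (SE 0.32) for Ighm, 0.18 (SE 0.45) for Ms4a1, 0.10 (SE 0.53) for Pax5 and -0.06 (SE 0.39) for Cd79b. The Jchain value ranged from 0.66 to 1.51 when each library was left out in turn, and was 0.33 with the replicate number as a block. With no filter on low counts, 2 of the 7 genes (Igkc and Jchain) were among the 0.508% of 30097 genes called, which is given with no reading since the genes were chosen on these values.

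Treated against abscopal tumors of day 3 had 0 of the 6 genes called beside 5.44% of the genes tested. At an unadjusted p under 0.05 there were 2 of the 6 and 1918 of the 10264 genes tested. Log2 fold changes were -1.23 (SE 0.56) for Jchain, -0.92 (SE 0.38) for Igkc, -0.55 (SE 0.28) for Ighm, -0.30 (SE 0.37) for Cd79b, -0.18 (SE 0.41) for Ms4a1 and -0.16 (SE 0.48) for Pax5. The 6 genes thus stood lower in treated tumors by different amounts, and the receptor-stage genes by less than their standard errors. With no filter on low counts, 3 of the 7 (Ighm, Igkc and Jchain) were called, as were 3.4% of genes. Summed T cell markers (9 genes, each detected) stood at 480 to 1907 CPM in treated tumors of day 3, at 1814 to 2433 CPM in abscopal tumors and at 2199 to 2924 CPM in control tumors. Summed neutrophil markers (7 genes, each detected) stood at 1342 to 26983 CPM in treated, 840.2 to 2836 CPM in abscopal and 385 to 2838 CPM in control tumors. The part of these other cell types in the values of the B lineage genes was not tested.

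On day 7, edgeR called 0 of the 6 genes and 0.0% of 10817 genes in treated against control tumors, where DESeq2 and limma-voom called 0 genes as well and 344 genes were at an unadjusted p under 0.05, 0 of the 6 among them. Log2 fold changes were -0.57 (SE 0.45) for Pax5, -0.34 (SE 0.35) for Cd79b, -0.32 (SE 0.40) for Ms4a1, -0.24 (SE 0.39) for Ighm, -0.22 (SE 0.48) for Igkc and 0.03 (SE 0.56) for Jchain. Treated tumors of day 7 were 3 libraries, of which 1 held under 1000000 counts.

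Abscopal against control tumors of day 7 showed the members apart in sign. Pax5, Ms4a1 and Cd79b stood lower in abscopal tumors, with log2 fold changes of -1.65 (SE 0.48), -1.17 (SE 0.41) and -0.89 (SE 0.36), and Ighm stood at -0.38 (SE 0.35). Jchain stood higher at 1.63 (SE 0.45) and Igkc at 0.64 (SE 0.41). Again 0 of the 6 genes were called beside 0.0% of the genes tested, with 4 of the 6 and 800 of all genes at an unadjusted p under 0.05, and DESeq2 and limma-voom called 0 genes. With no filter on low counts, 5 of the 7 (Cd79b, Igkc, Jchain, Ms4a1 and Pax5) were among the 0.344% of 29636 genes called, and nothing is read from this, since the genes were chosen on the same values. The higher values of Jchain and Igkc rested on abscopal replicate 1, without which they were 0.10 and -0.49, whereas Pax5 stayed between -1.85 and -1.44 and Ms4a1 between -1.25 and -0.94 whichever of the 14 control and abscopal libraries was left out.

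Treated against abscopal tumors of day 7 had 0 of the 6 genes called, 0.0% of the genes tested, 0 genes by DESeq2 and limma-voom, and 1 of the 6 and 290 of all genes at an unadjusted p under 0.05. Log2 fold changes were 1.08 (SE 0.60) for Pax5, 0.85 (SE 0.50) for Ms4a1, 0.55 (SE 0.45) for Cd79b, 0.13 (SE 0.45) for Ighm, -0.86 (SE 0.56) for Igkc and -1.59 (SE 0.64) for Jchain. Without abscopal replicate 1 the last 2 were 0.26 and -0.08. With no filter on low counts 1 of the 7 (Jchain) was called, as were 0.0574% of genes. The comparisons of each day share libraries, so their values are not independent of each other.

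**Figure D2:**
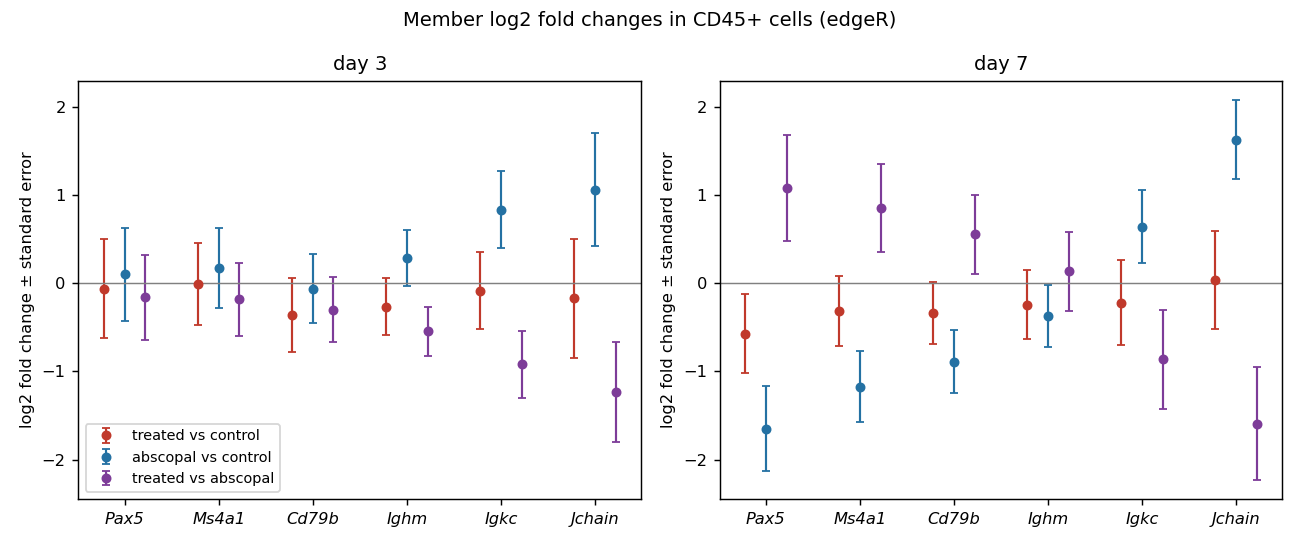
Log2 fold changes (edgeR) of the 6 genes that passed the filter, with standard errors as whiskers, for the 3 comparisons of tumor groups on day 3 (left) and day 7 (right). On day 7 abscopal against control runs from -1.65 for Pax5 to 1.63 for Jchain, while treated against control stays between -0.57 and 0.03.

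The change from day 3 to day 7 was not among the comparisons used to choose the genes and was tested in a fit of both days. The same libraries served for the choice, so the test is not independent of it. In control tumors the log2 fold changes of day 7 against day 3 were 0.76 (SE 0.48) for Pax5, 0.72 (SE 0.42) for Ms4a1, 0.61 (SE 0.46) for Igkc, 0.54 (SE 0.36) for Ighm, 0.54 (SE 0.37) for Cd79b and 0.36 (SE 0.61) for Jchain. None of the 6 passed the test (edgeR adjusted p of 0.956 to 0.997, and 0 at an unadjusted p under 0.05), beside 0.00889% of 11251 genes. In treated tumors the 6 values ran from 0.29 (SE 0.59) for Pax5 to 0.59 (SE 0.45) for Cd79b with edgeR adjusted p of 0.471 to 0.831, beside 4.14% of genes called. In abscopal tumors Jchain was at 0.91 (SE 0.57) and Igkc at 0.42 (SE 0.46), while Pax5 was at -0.95 (SE 0.60), Ms4a1 at -0.59 (SE 0.49), Cd79b at -0.26 (SE 0.43) and Ighm at -0.11 (SE 0.37), with edgeR adjusted p of 0.492 to 0.948 beside 0.747% of genes called. Without day 7 abscopal replicate 1 Jchain was at -0.62 and Igkc at -0.73, so their direction rested on that library. With no filter on low counts 1 of the 7 (Jchain) was called there, beside 0.812% of genes. DESeq2 and limma-voom called 0 of the 6 in these 3 comparisons. At an unadjusted p under 0.05 there were 0 of the 6, beside 561, 2196 and 1634 of all genes in control, treated and abscopal tumors.

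The difference from control tumors was also set side by side for the days as an interaction. Since it is built from the comparisons on which the genes were chosen, its values are a description with no test. For abscopal tumors the log2 fold change of day 7 minus that of day 3 was -1.72 (SE 0.77) for Pax5, -1.31 (SE 0.65) for Ms4a1, -0.79 (SE 0.56) for Cd79b, -0.65 (SE 0.51) for Ighm, -0.19 (SE 0.65) for Igkc and 0.55 (SE 0.84) for Jchain. Without day 7 abscopal replicate 1 it was -1.32 for Igkc and -0.96 for Jchain, so the direction of Jchain turned. edgeR called 0 of the 6 genes and 0.0% of genes (733 genes and 1 of the 6 at an unadjusted p under 0.05, with 1 gene called by DESeq2 and 0 by limma-voom, none of the 6), and with no filter on low counts 2 of the 7 (Ms4a1 and Pax5) and 0.226% of genes. For treated tumors the 6 values ran from -0.47 (SE 0.77) for Pax5 to 0.21 (SE 0.94) for Jchain. There edgeR, DESeq2 and limma-voom called 0 of the 6, where edgeR called 2.7% of genes. At an unadjusted p under 0.05 there were 0 of the 6 and 1775 of all genes.

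Beyond group averages, the genes fell into sets that varied together from library to library. After the mean of each group and day was removed from log2(CPM + 1), Ms4a1 and Pax5 were correlated over the 34 CD45+ libraries (Pearson r = 0.850, Spearman rho = 0.907), as were Cd79b with Pax5 (r = 0.789, rho = 0.815) and Cd79b with Ms4a1 (r = 0.774, rho = 0.813). Igkc and Jchain formed the other close pair (r = 0.859, rho = 0.819). For these 4 of the 15 pairs computed the two-sided permutation p was 1e-05 for both measures, the smallest that 100000 permutations within groups can give. Without the 2 libraries farthest from the median of the x axis r was 0.816, 0.851, 0.797 and 0.818, and within days it was 0.798 and 0.922, 0.804 and 0.774, 0.773 and 0.777, and 0.864 and 0.869, on day 3 and day 7 respectively. These libraries share depth and total RNA composition as well as B lineage content.

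Ighm stood between the sets. It was correlated with Igkc (r = 0.692, rho = 0.688, permutation p of 4e-05 and 5e-05), with Ms4a1 (r = 0.562, rho = 0.599, permutation p of 0.00085 and 0.00053) and less closely with Jchain (r = 0.419, rho = 0.393, permutation p of 0.0224 and 0.0251). The Ms4a1 relation was closer on day 7 (r = 0.822) than on day 3 (r = 0.288), a difference that was not tested, and was 0.454 without the 2 farthest libraries; for Igkc and Jchain with Ighm those values were 0.660 and 0.382. Ms4a1 and Jchain did not pass the test (r = -0.261, rho = -0.255, permutation p of 0.144 and 0.163), with r = -0.624 on day 3 and 0.239 on day 7, and -0.330 without the 2 farthest libraries. Pax5 and Jchain did not pass it either (r = -0.136, rho = -0.127, permutation p of 0.452 and 0.483).

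**Figure D3:**
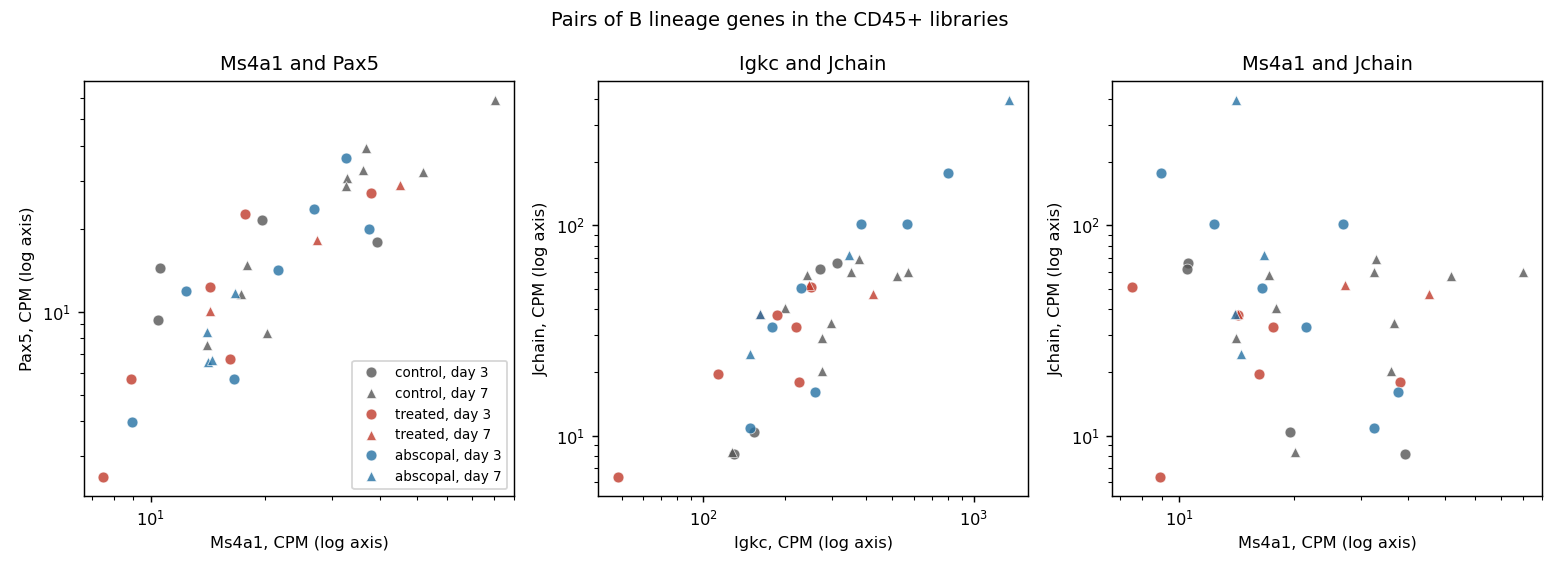
CPM of Ms4a1 against Pax5, Igkc against Jchain and Ms4a1 against Jchain in the 34 CD45+ libraries (both axes logarithmic), with color for the group and shape for the day. Points of the first 2 panels lie along a rising band (r of 0.850 and 0.859 after group means were removed), while those of the third are scattered (r = -0.261).

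The same measure over 10140 genes named the genes that varied most like each. Among those nearest Ms4a1 by Spearman's rho were Pax5 (0.907), Pou2af1, a coactivator of immunoglobulin transcription (0.907), Cd22, an inhibitory receptor of B cells (0.901), Fcmr, a receptor for IgM (0.868), Cr2, the complement receptor CD21 (0.859), Ebf1, an early B lineage transcription factor (0.858), and Scd1, a fatty acid desaturase (0.843). Cd79b ranked 12, Ighm 40, Igkc 1703 and Jchain 8572 in that order. Nearest Igkc were Jchain (0.819), Iglc1, a lambda light chain (0.748), Ube2f (0.700), Pacsin2 (0.699), Ighm (0.688), Cacul1 (0.669), Serp1, a protein of stressed endoplasmic reticulum (0.657), and H2-DMb2 (0.652). Those nearest Cd79a began with Klhl5 at 0.658, followed by Rgs19, Fam114a2, Rnf44, Tmem8, Bmpr2, Fastkd5 and Sesn1, with Ms4a1 at rank 129, but at 0 to 7 counts per library this order is no finding. Ms4a1 was added as a reference gene after Cd79a was seen to be so sparse.

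The other B lineage genes were placed by their correlation with Ms4a1 and with Jchain, as a description over the same 34 libraries, for the 48 genes with at least 100 summed counts. Of 16 surface and receptor signalling genes 15 were nearer to Ms4a1, with a median rho of 0.68 against -0.05 with Jchain, the exception being Cd72 (0.25 against 0.49). The 6 transcription factors of the B lineage were nearer to Ms4a1 too (median 0.61 against -0.07). Of the 9 other immunoglobulin constant genes 4 were nearer to Ms4a1, among them Ighd (0.84 against -0.08), the delta chain of naive B cells, while Igha, the heavy chain of IgA, was nearer to Jchain (-0.44 against 0.85). Of 6 genes of plasma cells and secretion, 1 (Sdc1) was nearer to Ms4a1, and the medians were 0.04 and 0.25.

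**Figure D4:**
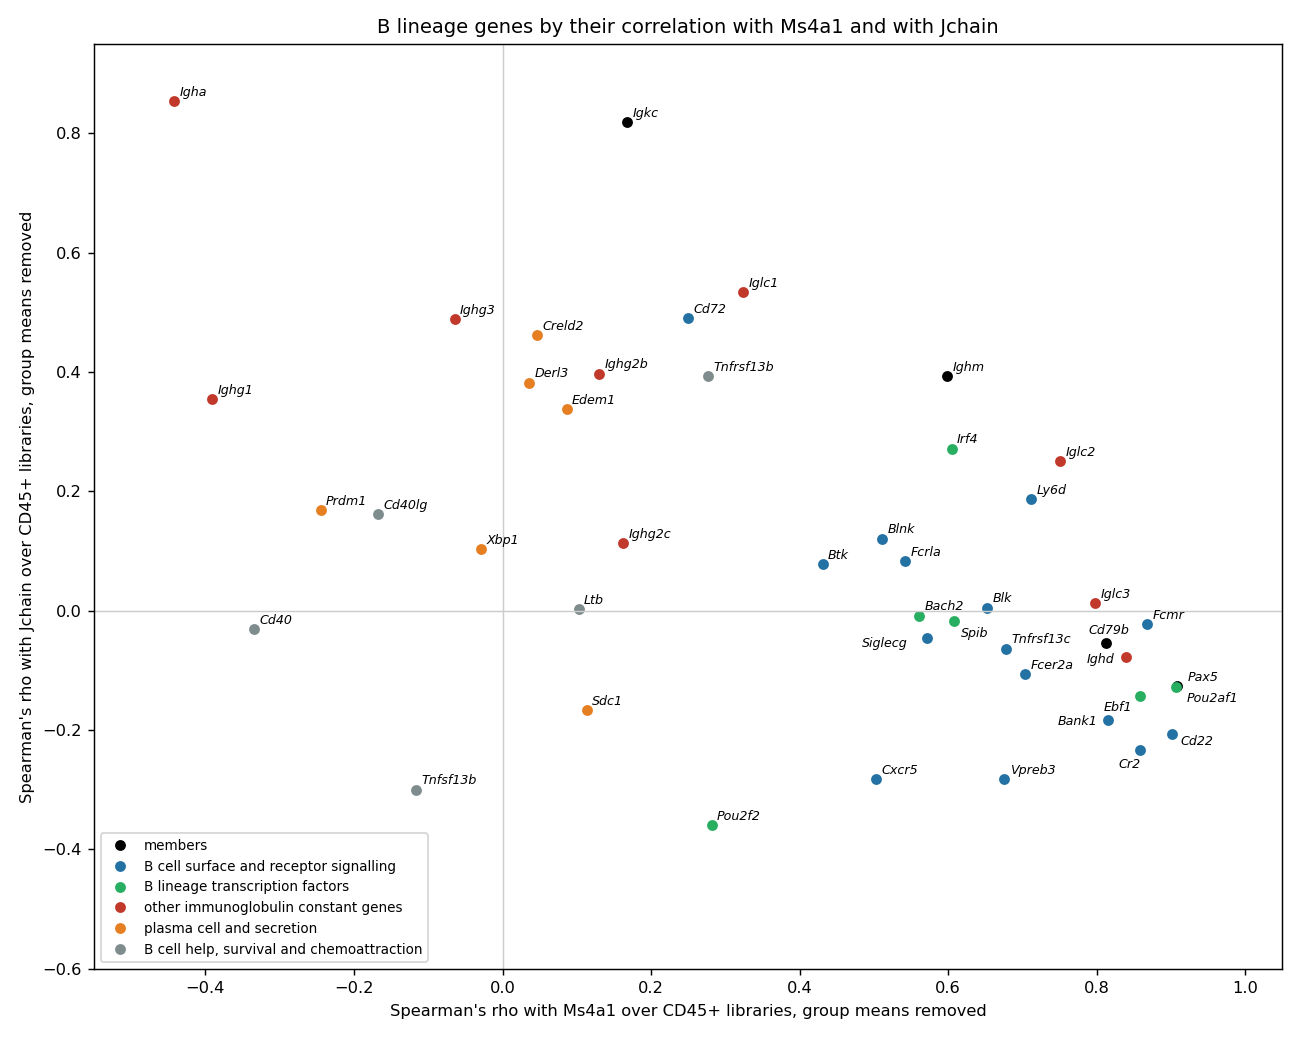
B lineage genes by Spearman's rho with Ms4a1 (horizontal) and with Jchain (vertical) over the 34 CD45+ libraries after removal of group means, colored by gene list; Ms4a1 and Jchain themselves are left out. Most surface genes and transcription factors lie to the right near 0 on the vertical axis, with exceptions such as Cd72 (0.25 and 0.49) and Pou2f2 (0.28 and -0.36). Igha (-0.44 and 0.85) and Igkc (0.17 and 0.82) lie at the top.

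The 3 lambda light chain genes split between the sets, and their sequences are printed because near-identical genes share reads. Iglc1 (chr16:19061618-19062071) was nearer to Jchain (0.53) than to Ms4a1 (0.32), whereas Iglc2 (chr16:19198396-19200351) and Iglc3 (chr16:19065230-19065681) were nearer to Ms4a1 (0.75 and 0.80, against 0.25 and 0.01). The last 240 coding bases of the GENCODE M21 transcripts on GRCm38, minus strand, are given 5′ to 3′ up to the stop codon, with capitals at bases of Iglc1 and Iglc3 that differ from Iglc2 or lie opposite a gap in it.
Iglc1: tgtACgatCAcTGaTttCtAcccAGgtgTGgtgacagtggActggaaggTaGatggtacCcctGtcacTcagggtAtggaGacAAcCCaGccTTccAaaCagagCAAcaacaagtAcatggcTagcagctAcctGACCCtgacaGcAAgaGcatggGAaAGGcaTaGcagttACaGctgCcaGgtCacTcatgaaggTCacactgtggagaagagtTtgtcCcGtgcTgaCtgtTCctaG
Iglc2: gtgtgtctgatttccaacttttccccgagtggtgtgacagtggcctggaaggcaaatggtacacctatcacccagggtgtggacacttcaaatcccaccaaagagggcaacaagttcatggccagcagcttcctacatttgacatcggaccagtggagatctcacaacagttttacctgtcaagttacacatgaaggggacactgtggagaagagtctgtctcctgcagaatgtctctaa
Iglc3: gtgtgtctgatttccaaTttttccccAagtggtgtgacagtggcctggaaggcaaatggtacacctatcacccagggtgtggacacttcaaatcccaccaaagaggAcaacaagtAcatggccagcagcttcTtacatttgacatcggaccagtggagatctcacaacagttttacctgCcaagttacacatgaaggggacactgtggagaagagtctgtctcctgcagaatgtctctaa
Iglc2 and Iglc3 were 95.6% identical over the whole coding stretch and 90.0% after the stop codon, where 3′ libraries are read, so how reads were divided between them is uncertain. Iglc1 was 73.0% identical to Iglc2 and 74.6% identical to Iglc3 over the coding stretch, and 53.2% and 51.4% identical after the stop codon, and its 69 capitals spread along the printed bases.

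In the comparisons of tumor groups the wider lists gave few calls. Of the members and 48 further genes of 5 lists, 40 were tested on day 3, 45 on day 7 and 46 over both days. On day 3, edgeR called 0 of 40 in treated against control tumors (5 at an unadjusted p under 0.05, DESeq2 0, limma-voom 1, which was Ly6d), 0 in abscopal against control (3 at an unadjusted p under 0.05, DESeq2 and limma-voom 0) and 0 in treated against abscopal (6 at an unadjusted p under 0.05, DESeq2 1, which was Siglecg, limma-voom 0). In the same order, 2457, 796 and 1918 of the 10264 genes tested were at an unadjusted p under 0.05. The median log2 fold changes of the 40 genes were -0.04, 0.13 and -0.18, beside medians of all genes of -0.01, 0.01 and -0.03. Ly6d, a surface protein of B cells and plasmacytoid dendritic cells, had a log2 fold change of -0.99 (SE 0.32, edgeR adjusted p = 0.0641) in treated against control tumors of day 3. Its level ran from 10.02 to 39.2 CPM in treated tumors and from 36.6 to 61.7 CPM in control tumors. Summed markers of plasmacytoid dendritic cells (7 genes, each detected) ran from 250.4 to 561 CPM and from 532 to 740.4 CPM in the same libraries, and their part in the Ly6d value was not tested. Siglecg, an inhibitory lectin of B cells, was at 0.87 (SE 0.32, edgeR adjusted p = 0.0959) in the same comparison.

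On day 7, 0 of the 45 genes were called in any of the 3 comparisons by edgeR, DESeq2 or limma-voom. At an unadjusted p under 0.05 there were 2 in treated against control, 20 in abscopal against control and 6 in treated against abscopal tumors. Of the 10817 genes tested, 344, 800 and 290 were at such a p in the same order. In abscopal against control tumors the surface and receptor signalling list stood lower in 13 of 14 genes, with 9 of them at an unadjusted p under 0.05. Its median log2 fold change was -0.99, beside -0.02 over all genes, of which 47.3% stood higher. Genes of this list varied together from library to library, so they are not independent of each other. Fcmr was at -1.48 (SE 0.47), with 14.1 to 35.1 CPM in abscopal and 18.8 to 129 CPM in control tumors. Ighd was at -1.66 (SE 0.49) and Ebf1 at -1.60 (SE 0.52). Igha was at 1.95 (SE 0.53), from values of 2196, 519, 152 and 136 CPM in abscopal tumors and 39.7 to 352 CPM in control tumors. Iglc1 was at 1.37 (SE 0.55), from values of 236, 31.7, 4.22 and 15.6 CPM in abscopal tumors. Abscopal replicate 1 held by far the highest value of both, and replicates 3 and 4 of Igha lay inside the control range. Fold changes of Igha and Iglc1 without replicate 1 were not computed. The edgeR adjusted p of Fcmr, Ighd, Ebf1, Igha and Iglc1 were 0.537 to 0.617. Plasma cell and secretion genes had a median of -0.00 over 5 tested, with Xbp1, a driver of the secretory program, at -0.00 (SE 0.22) and Prdm1, the plasma cell regulator also made by T cells, at 0.06 (SE 0.13). Summed T cell markers in the same libraries were 1207 to 2027 CPM in abscopal and 1069 to 3072 CPM in control tumors, and summed monocyte and macrophage markers 2928 to 4712 CPM and 2118 to 3736 CPM. Summed neutrophil markers were 536 to 2206 CPM in abscopal and 1640 to 5187 CPM in control tumors, and those of naive or central memory lymphocytes 867 to 1015 CPM and 899.7 to 1463 CPM. The part of these cell types was not tested.

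Apart from Ebf1, the transcription factors with the highest counts stood within 0.41 of 0 on the log2 scale in the same comparison, and so did the helper genes named here. Pou2f2, an octamer-binding factor that other leukocytes also express, was at 0.05 (SE 0.16), Bach2, which holds B and T cells back from effector fates, at -0.15 (SE 0.19), and Irf4, which activated lymphocytes and plasma cells use, at -0.41 (SE 0.26). Among genes of protein quality control in secreting cells, Edem1 was at -0.02 (SE 0.17) and Creld2 at 0.06 (SE 0.19). Cd40, the receptor through which T cells help B cells, was at 0.35 (SE 0.15), with 39.2 to 54.7 CPM in abscopal and 29.5 to 49.3 CPM in control tumors. Its ligand gene Cd40lg was at -0.35 (SE 0.47), the lymphotoxin gene Ltb at -0.09 (SE 0.15) and the lambda gene Iglc3 at -0.19 (SE 0.36). The edgeR adjusted p of these 9 genes ran from 0.652 for Cd40 to 0.99 for Edem1.

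Between the days, 2 genes of the lists were called. Tnfrsf13b, which encodes the receptor TACI of B cells and plasma cells, rose in treated tumors by 0.82 on the log2 scale (SE 0.20, edgeR adjusted p = 0.0157), from 20.0 to 28.5 CPM in the 6 day 3 libraries to 44.2, 50.4 and 48.8 CPM on day 7, with no overlap. Btk, the tyrosine kinase below the B cell receptor, which myeloid cells also express, rose in abscopal tumors by 0.79 on the log2 scale (SE 0.17, edgeR adjusted p = 0.0276), from 22.7 to 40.6 CPM in the 7 day 3 libraries to 65.4, 45.1, 51.3 and 53.6 CPM, again with no overlap. Each was the 1 gene called of 46, and the background was the 4.14% and 0.747% above. Neither call was shown to differ from control tumors, since the interaction had an edgeR adjusted p of 0.277 for Tnfrsf13b in treated tumors and 0.873 for Btk in abscopal tumors. The Tnfrsf13b call was lost without day 7 treated replicate 1 and without replicate 3, and the Btk call without abscopal replicate 1 or 2 of day 7 and without abscopal replicate 2 or 3 of day 3. The Btk call was also lost with the replicate number as a block and among libraries of at least 1000000 counts. Summed monocyte and macrophage markers ran from 2091 to 3361 CPM in abscopal tumors of day 3 and from 2928 to 4712 CPM in those of day 7. Their part in the Btk value was not tested. In control tumors, 15 of 15 surface genes tested had a positive log2 fold change between the days, as had 50.6% of all 11251 genes. Their median was 0.72, beside 0.00 over all genes. At an unadjusted p under 0.05 there were 5 of the 15 and 561 of all genes, and 0 of the 15 were called by edgeR, DESeq2 or limma-voom. These surface genes varied together, so they are not independent of each other.

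The heavy chain constant genes were compared as shares of their summed counts in each library, which removes differences in how much immunoglobulin RNA a library held. Over the 34 CD45+ libraries Ighm made up 11.2 to 78.1% (median 42.7%), Igha 6.46 to 83.0% (median 40.8%) and Ighd 0.838 to 19.4% (median 6.43%). Of the IgG chains Ighg2b reached 11.7% (median 3.52%) and Ighg2c 24.7% (median 1.21%), and Ighe had 0 counts in these libraries. Igha and Ighm thus took most of the heavy chain counts. Shares of the IgG chains are uncertain, since their sequences are alike.

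In day 7 abscopal tumors Igha took 44.5 to 79.8% (median 52.7%), and in day 7 control tumors 6.46 to 64.1% (median 31.4%), with overlap. The highest Igha share of the 34 libraries was in day 3 treated replicate 4 (83.0%), which also had the lowest Pax5 (2.50 CPM) and the lowest Ms4a1 (7.51 CPM) of the 34, and had an Igkc to Ighm ratio of 3.02. Counts of Jchain over Ms4a1 ran from 1.69 to 28.0 in day 7 abscopal tumors, from 0.417 to 3.38 in day 7 control tumors, and from 0.333 to 19.8 in day 3 abscopal tumors. In day 3 control tumors this ratio ran from 0.208 to 6.27, and in day 3 treated tumors from 0.476 to 6.75. The ratio thus spread over more than an order of magnitude in every day 3 group and in day 7 abscopal tumors. It spread less in the control and treated tumors of day 7, so a wide spread was not particular to abscopal tumors. The top of each abscopal range was a single library.

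**Figure D5:**
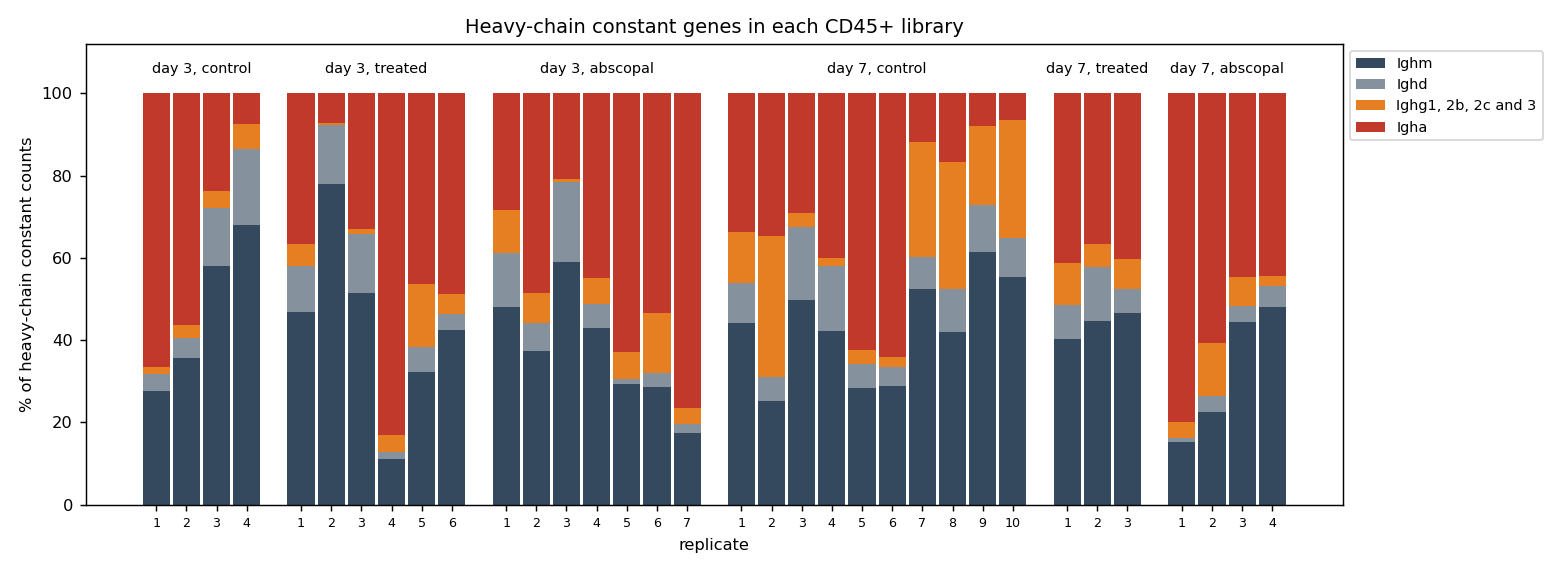
Share of each heavy chain constant gene in the summed heavy chain counts of each CD45+ library (stacked bars, percent, the IgG genes summed), by day, group and replicate number. Igha runs from 6.46% to 83.0% and Ighm from 11.2% to 78.1% between libraries, with wide ranges inside the groups.

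Variable segment rows, which carry the antigen-binding parts, gave a last readout of B lineage RNA. Of 348 rows 140 had a count in CD45+ cells, with 885 counts in all (355 Ighv, 306 Igkv and 224 Iglv) against 19 in CD45- cells. Per library they ran from 1.81 to 53.2 CPM in day 3 abscopal tumors and from 2.11 to 51.3 CPM in day 7 abscopal tumors, and from 4.48 to 35.1 CPM in day 7 control tumors. The top libraries were day 7 abscopal replicate 1, with 109 counts over 39 rows, and day 3 abscopal replicate 5, with 107 counts over 28 rows. In that second library Ighv1-11 held 21 of the 107 counts, or 19.6% (95% Clopper-Pearson interval 12.6 to 28.4%). It also held 14 of 28 counts, or 50.0% (95% Clopper-Pearson interval 30.6 to 69.4%), in day 3 treated replicate 4, the library with the highest Igha share. Ighv1-11 was singled out after its values were seen, and the last 240 bases of its transcript (GRCm38, chr12:114612243-114612675, minus strand, GENCODE M21) are shown because it led both of these libraries.
Ighv1-11: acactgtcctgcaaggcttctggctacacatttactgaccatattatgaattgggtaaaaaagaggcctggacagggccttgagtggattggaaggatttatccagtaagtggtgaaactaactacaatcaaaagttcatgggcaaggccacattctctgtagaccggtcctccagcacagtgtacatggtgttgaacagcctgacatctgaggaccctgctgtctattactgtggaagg
Reads of other, similar segments can be assigned to such a row, and short 3′ reads rarely reach the variable part, so these counts describe the rows and not clones.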

How the data were processed

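QuantSeq 3′ libraries of flow-sorted CD45+ and CD45- cells were analysed. The authors trimmed reads with Trim Galore 0.5.0, aligned them to GRCm38 with STAR 2.6.0, collapsed unique molecular identifiers with Lexogen QuantSeq 2.3.6 and counted reads per gene with featureCounts, and they deposited raw counts without normalization (versions in part from the submitters' processing notes). The strand setting is not given in the sources used here. An unnamed line of each CD45+ table, 100% of the column totals, was left out, and 0 value columns lacked a sample.

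Genes were kept by filterByExpr (minimum count 10, total 15) and tested with edgeR 4.0.16 (quasi-likelihood, TMM) in R 4.3.3 on all groups of a day, or of both days, at an adjusted p of 0.05. limma 3.58.1, DESeq2 1.42.0, library totals, no filter, deeper libraries, a replicate block, the compared groups alone and leaving out each library were tried. Correlations used log2(CPM + 1), 100000 permutations and scipy 1.17.1. Depth ran from 887798 to 3820705 counts over 70 libraries, and 95% Clopper-Pearson intervals cover counting error only. Of 208 library pairs of the same group and table, the smallest chi-square per degree of freedom was 1.99, so no library was taken as a repeat.

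The members and lists were chosen with earlier results of these data known. Named were the members, up to 4 genes of each list with the highest mean CPM, called genes, and the 8 genes most like Cd79a and Igkc. Other genes, among them Cd22, Cd72, Cr2, Pou2af1, Sdc1, Iglc2, Ighg2b and Ighg2c, Ighe and Ighv1-11, and those most like Ms4a1, were chosen after their values were seen. Melanoma, NK cell, fibroblast, endothelial and erythroid markers were summed as well: in CD45+ libraries they ran over 88.8 to 2248, 73.5 to 430, 1.99 to 34.3, 35.1 to 93.4 and 62.8 to 7293 CPM. A further gene is not reported here.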

Additional observations from a re-analysis of the deposited data

Results flagged for a closer look

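In 5 of 35 sets of a gene, day and group with 4 to 10 libraries, the end library stood far from the rest by Dixon's 95% criterion. Chance alone meets it in about 1 of 20 sets of independent, normally distributed values. These sets share libraries and hold genes that varied together, so 5 of 35 cannot be read against that rate. In day 7 abscopal tumors, replicate 1 was the highest of 4 for Igkc (1345 CPM, next 345 CPM), for Jchain (395 CPM, next 72.6 CPM) and for Ighm (422 CPM, next 192 CPM). In the same group replicate 2 was the highest for Ms4a1 (16.7 CPM, next 14.5 CPM), where the other 3 lay within 1 CPM of each other. In day 3 treated tumors replicate 3 was the highest of 6 for Ms4a1 (38.0 CPM, next 17.7 CPM).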

How the results depend on the processing

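Of 1332 values of the 6 genes under alternatives, 1324 moved by less than the SD of single libraries within groups (on the log2 scale 1.21 for Jchain and 0.863 for Igkc). The other 8 were Jchain and Igkc without day 7 abscopal replicate 1: 0.10 and -0.49 for abscopal against control tumors of day 7, -0.08 and 0.26 for treated against abscopal, -0.62 and -0.73 for abscopal tumors between days, and -0.96 and -1.32 for the interaction. This limit is wide for a difference of group means, and values inside it could change sign. The abscopal interaction of Jchain went from 0.55 to -0.26 with limma-voom. Ighm in treated against abscopal tumors of day 7 went from 0.13 to -0.27 among libraries of at least 1000000 counts. Of 222 counts of called B lineage genes, 188 stayed within 1.5 times. With no filter on low counts, the counts were 5, 6 and 10 on day 3 (treated against control, abscopal against control, treated against abscopal), 1, 20 and 7 on day 7, 7, 6 and 6 between days in control, treated and abscopal tumors, and 3 and 8 for the treated and abscopal interactions. Over all genes it gave 1244, 153 and 1022 calls on day 3, 32, 102 and 17 on day 7, 106, 771 and 273 between days, and 628 and 76 for the interactions. The cause was not tested. In treated against control tumors of day 3, limma-voom called 1, library totals 4 and the replicate block 2. In treated against abscopal tumors of day 3, DESeq2 and library totals called 1 each. Between days in treated tumors library totals called 3, and in abscopal tumors libraries of at least 1000000 counts and the replicate block called 0. Leaving out 1 library gave 0 to 4 calls in treated against control tumors of day 3 (4 without treated replicate 3), 0 to 1 in treated against abscopal tumors of day 3, 0 to 4 in treated tumors between days (4 without day 3 replicate 3) and 0 to 2 in abscopal tumors between days. Same-numbered libraries of the groups of a day had correlations of -0.234 to 0.369 (24 pairs, 11 over 0.1). Pairs with a control library cannot share a mouse, and pairs of a treated and an abscopal library ran from 0.014 to 0.355. The labels do not say what a number marks, so the numbers were not taken as pairs. Whether some treated and abscopal libraries are pairs cannot be decided from these correlations. With the replicate block Jchain in abscopal against control tumors was 0.33 on day 3 and 1.01 on day 7. Library totals moved the median of all genes to -0.15 in treated against abscopal tumors of day 3, to 0.19 in treated tumors between days and to 0.22 for the treated interaction, and the calls from 500 higher and 58 lower to 345 and 89, from 92 and 374 to 280 and 223, and from 29 and 275 to 74 and 161. At 0 to 7 counts per library, Cd79a was out of reach at this depth.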

Other observations

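Ighg2c, the IgG2c heavy chain of C57BL/6 mice, was uneven among the 10 control tumors of day 7. It stood at 143, 80.1, 104, 144 and 167 CPM in replicates 2, 7, 8, 9 and 10, and at 38.0, 17.9, 10.3, 9.47 and 2.24 CPM in replicates 1, 3, 4, 5 and 6. In the 4 control tumors of day 3 it stood at 1.31 to 6.94 CPM. The log2 fold change of day 7 against day 3 in control tumors was 4.37 (SE 1.07, edgeR adjusted p = 0.579), and that of abscopal against control tumors of day 7 was -2.88 (SE 0.94, edgeR adjusted p = 0.558). The gene was chosen after its values were seen.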
